A study of Homo sapiens with 20 samples.

Results

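Mucins are large, heavily O-glycosylated proteins that cover the intestinal epithelium, and 10 of their genes were followed here: MUC2, MUC5AC and MUC5B, which encode secreted gel-forming mucins, and MUC1, MUC3A, MUC4, MUC12, MUC13, MUC17 and MUC20, which encode mucins anchored in the cell membrane. They were taken by symbol, without regard to any measured value, and all 10 were found among the 17113 protein-coding genes of the count table. RNA had been sequenced from 10 human colorectal cancer cell lines, in each line once as total cell RNA and once as RNA of the extracellular vesicles shed by the cells, which gave 20 libraries. The lines are LoVo, COLO-201, SNU-C1, HT-29, WiDr, HCT 116, LS123 and SW480, labelled as coming from the colon, and LS1034 and LS513, labelled as coming from the cecum. All carry the labels WT and adenocarcinoma, received no treatment, and grew in RPMI-1640 or DMEM with fetal bovine serum, penicillin and streptomycin. The question of the series is how far the RNA of vesicles mirrors the RNA of the cells that released them.

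Gel-forming mucins are stored in goblet cells as disulfide-linked polymers and expand on release into the mucus layer, of which MUC2 is the main component in the healthy colon. MUC5AC is typical of the stomach and airway surface, and MUC5B of the airway and salivary glands. Membrane mucins form the glycocalyx at the apical cell surface, with MUC3A, MUC12, MUC13 and MUC17 belonging to the brush border of enterocytes. MUC1 and MUC4 are found on many epithelia, and MUC4 can bind the receptor tyrosine kinase encoded by ERBB2. Both classes carry long tandem repeats rich in serine and threonine, to which GALNT enzymes attach the first sugar.

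Each line has 1 library per compartment, so lines serve as replicates (n = 10), and repeat cultures of the same line were not analysed here. Library preparation differed by compartment, with ribosomal RNA removal and a stranded kit for cells and amplification from low input followed by tagmentation for vesicles, so compartment and kit cannot be told apart in any comparison of vesicles with cells. Library totals ranged from 24.8 to 37.4 M counts in cells and from 1.75 to 24.4 M in vesicles, so that 3 counts, the most that a listed 0 allows, amount to at most 0.157 CPM (LS513) in a cell library and to at most 0.915 CPM (SNU-C1) in a vesicle library on the scale used here, as far as counting error goes. In 2 pairs of lines the profiles were alike. After centring on the mean of the cells, the 2000 most variable genes correlated at r = 0.94 between HCT 116 and LS123 and at r = 0.90 between HT-29 and WiDr, against 0.40 for the next pair. WiDr is known to be related to HT-29, and the labels give no such link for the libraries labelled HCT 116 and LS123, for which a wrong label was not tested. The 10 lines may thus amount to 8 independent ones, and the comparisons were repeated without WiDr and LS123. All 12 markers of colorectal epithelium reached a median of at least 1 CPM in both compartments.

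The repeats of these genes are shown because they set the length of the transcripts and because a read that lies within identical copies can be placed at more than 1 position. The units below are the most frequent repeat unit found in the GENCODE 29 coding sequence of each gene, read 5′ to 3′, with the codons of serine and threonine in capitals.
MUC5AC: TCTgcccctACAACCAGCACAACC
MUC1: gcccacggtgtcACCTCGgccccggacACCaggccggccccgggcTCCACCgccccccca
MUC4: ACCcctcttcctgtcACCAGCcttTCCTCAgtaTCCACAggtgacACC
MUC20: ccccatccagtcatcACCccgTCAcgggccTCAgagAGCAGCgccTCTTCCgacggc
MUC12: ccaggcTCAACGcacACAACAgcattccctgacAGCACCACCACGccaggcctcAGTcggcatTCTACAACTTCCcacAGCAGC

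The MUC1 unit of 60 bases occurred in 19 exact copies, and repeats with that period filled 69.6% of the MUC1 coding sequence. The MUC5AC unit of 24 bases occurred 14 times and 6 of its 8 codons encode serine or threonine. Repeats filled 60.7% of the MUC4 coding sequence, in units of 48 bases, and 40.2% of that of MUC20, in units of 57 bases. The MUC12 unit of 84 bases had 4 exact copies. MUC13, with the shortest coding sequence of the 9 genes examined (1539 bases), held no such repeat. The classes also differed in cysteine, the residue that links gel-forming mucins: MUC5AC had 294 cysteine codons (5.20% of all) and MUC5B 274 (4.76%), while the membrane mucins ranged from 0.238% in MUC1 to 3.91% in MUC13. The coding sequence of MUC2 was not analysed here. How reads with several positions were counted, and whether strand was used, is not given in the sources used here. Counts of the repeats, and of MUC3A and MUC20, which have near-identical copies elsewhere in the genome, are uncertain to that extent.

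In the cells the gel-forming mucins were a property of a few lines each. Levels are given in CPM, counts scaled to the size of the library by the TMM method, and a bulk value cannot separate fewer expressing cells from less RNA per cell. MUC2 ranged from 0 to 110.0 CPM over the 10 cell libraries, with a median of 1.49. LS513 had the highest level, followed by LoVo at 15.8 and WiDr at 11.5 CPM, and COLO-201, HCT 116 and LS123 had 0 counts. MUC5AC had a median of 0.639 CPM and was high in 3 lines, with 90.1 CPM in WiDr, 44.4 in HT-29 and 28.1 in LS1034. The next line, SNU-C1, had 2.29 CPM, so MUC5AC and MUC2 were highest in different lines. MUC5B stayed low throughout, from 0.0638 CPM in LoVo to 5.70 CPM in COLO-201.

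Among the membrane mucins MUC13 was high in most lines and almost absent from 2. MUC13 ranged from 0.145 to 658 CPM with a median of 78.2. LS513, SNU-C1, LS1034 and HT-29 lay above 200 CPM, with 658, 575, 327 and 237 CPM. HCT 116 and LS123, the lines with like profiles, had 4 and 10 counts of MUC13, or 0.145 and 0.397 CPM. MUC20, a short mucin with a cytoplasmic tail that associates with the MET receptor, ranged from 0.159 to 275 CPM with a median of 27.3. It fell into a group of 6 lines at 25.8 CPM or more (LS513, HT-29, SNU-C1, COLO-201, WiDr and LS1034) and a group of 4 at 0.595 CPM or less (LoVo, HCT 116, LS123 and SW480). MUC3A, by contrast, was at 0.598 CPM (SW480) or more in all 10 cell libraries, up to 90.1 CPM in LS513, with a median of 16.8.

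The other 4 membrane mucins were scarce in cells. MUC1 was highest in LS513 at 17.7 CPM, against a median of 0.796. MUC17 reached 8.28 CPM in LS513 and 7.88 in SNU-C1, and at most 1.45 elsewhere. MUC12 reached 6.09 CPM in WiDr and 5.33 in HT-29, and MUC4 did not exceed 1.95 CPM, its level in LS123. LS513 thus had the highest cell level of 6 of the 10 mucins, MUC2, MUC1, MUC3A, MUC13, MUC17 and MUC20.

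**Figure D1:**
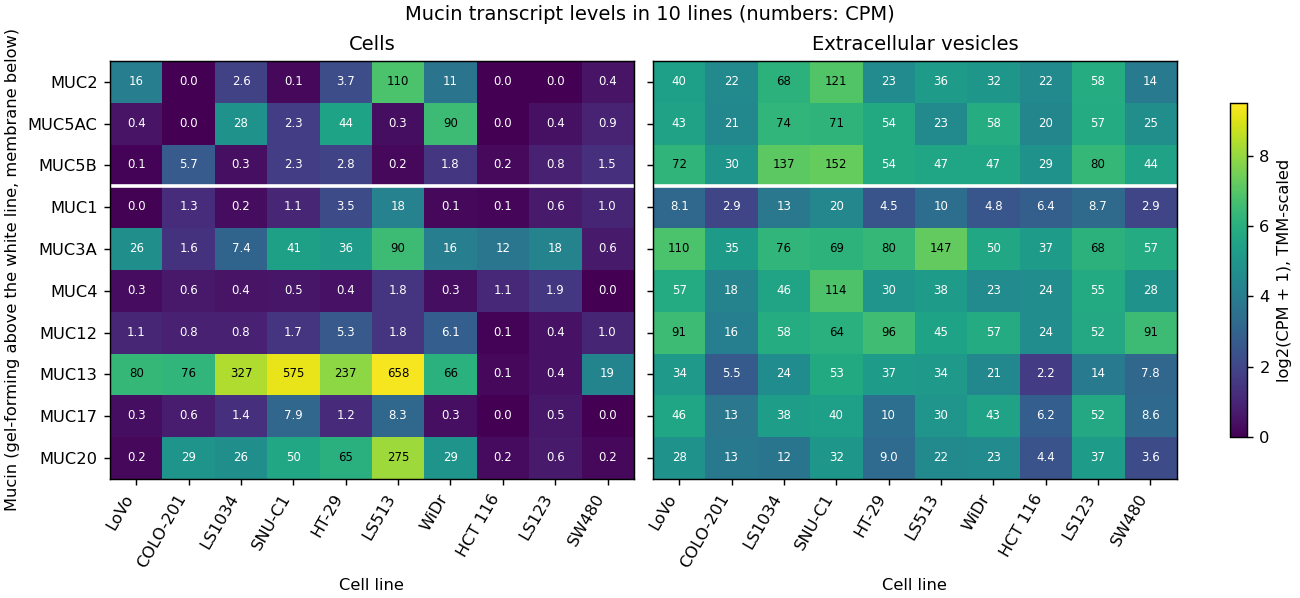
Level of each of the 10 mucins (rows) in cells (left) and vesicles (right) of the 10 lines (columns), 1 library per cell of the grid. Numbers are TMM-scaled CPM and colours log2(CPM + 1). MUC13 and MUC20 are high in some cell libraries and near 0 in HCT 116 and LS123, while the vesicle side is more even.

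Levels of different genes were compared per kilobase of exonic length, since long transcripts collect more reads. In cells the median level per kb fell from 22.4 CPM per kb for MUC13 through 6.44 for MUC20 and 1.47 for MUC3A to 0.0205 for MUC4, a ratio of 1088 between the highest and the lowest. MUC1, MUC2, MUC5B, MUC12, MUC17 and MUC5AC lay between 0.169 and 0.0366 CPM per kb. The ranges over lines overlapped for all 9 pairs of neighbours in that order, so the order of adjacent genes is not fixed beyond the spread between lines. MUC13 was the leading mucin per kb in the cells of 8 lines, with 56.0% of the mucin total in WiDr to 91.4% in LS1034. MUC3A led in HCT 116 with 85.6% and in LS123 with 72.6%.

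Some mucins rose and fell together across the cells. Over the 10 cell libraries Spearman's rho was 0.87 between MUC13 and MUC17, 0.84 between MUC17 and MUC20, and 0.82 between MUC1 and MUC20. Among the gel-forming genes MUC2 and MUC5B had a rho of -0.40, and MUC2 and MUC5AC 0.44. These are descriptions without a test, over 10 points of which HCT 116 with LS123 and HT-29 with WiDr may not be independent. For the 6 mucins with at least 10 CPM in any cell library, the genes of the most similar pattern were sought among 11049 genes by Pearson's r of log2 CPM. The highest value for MUC13 was 0.98 with MANSC1, followed by OSBP and ANKS4B, the last a scaffold protein of the brush border. MUC20 was most like ERN2, an endoplasmic reticulum stress sensor of mucus-secreting epithelia, with r = 0.98, and then STAT3 and TUFT1. MUC2 was most like IGFL2 (0.94), MUC5AC like ALDH18A1 (0.94), MUC1 like TMEM205 (0.97) and MUC3A like STX12 (0.94). All 6 mucins thus had a highest r between 0.94 and 0.98. These are maxima over 11049 genes in 10 libraries, how high such maxima run for other genes was not computed, and no shared function was tested.

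Transcription factors of the intestine and of goblet cells, and AGR2, were read in the same cell libraries. They were picked after their values were seen, from a list described further on whose other members are not given here. Where they share lines with a mucin this is a description, and no link was tested. HNF4A, a nuclear receptor of intestinal and hepatic epithelium, was lowest in HCT 116 and LS123, at 4.53 and 14.3 CPM against 46.8 to 173 CPM elsewhere. HCT 116 and LS123 are the lines with almost no MUC13. CDX2, a homeodomain factor of intestinal identity, was not ordered in that way, as it was lowest in COLO-201 (0.212 CPM), WiDr (0.605) and HT-29 (4.83), which have MUC13, and stood at 11.2 and 17.4 CPM in HCT 116 and LS123. CDX1, its close relative, was at 213 CPM or more in LS1034, LS513 and SNU-C1, the 3 lines highest in MUC13, and at 2.65 CPM or less in the other 7. SPDEF, which drives goblet cell maturation, was at 60.1 CPM in HT-29 and 53.1 in WiDr, and at 5.61 or less in the other 8, while HT-29 and WiDr were the highest lines for MUC5AC and not for MUC2. AGR2, a protein disulfide isomerase needed for mucin folding, was at 305 CPM or more in 7 lines and at 0.159 or less in HCT 116, LS123 and SW480.

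Most of the family had higher levels in vesicle libraries than in cell libraries, and of the mucins called higher all but MUC3A had a median under 2 CPM in cells. Vesicles were compared with cells by edgeR's quasi-likelihood test on all genes, with the line as a block, and log2 fold changes are vesicle over cell with their SE. Of the 10 mucins 8 were called higher at an adjusted p under 0.05 and 0 lower, where 28.6% of all 15130 genes tested were called higher and 28.1% lower. All 3 gel-forming and 5 of 7 membrane mucins were among the 8. The median log2 fold change of the 10 was 4.95, against 0.01 over all genes tested. The share of calls depended on the cell level: of the genes whose cell libraries averaged below 10 CPM, 74.3% were called higher and 0.372% lower, and of those at 10 CPM or above, 5.29% and 42.2%. By that mean, 5 mucins (MUC5B, MUC1, MUC4, MUC12 and MUC17) belonged to the lower class and all 5 were called higher, and 5 belonged to the upper class, of which MUC2, MUC5AC and MUC3A were called higher. The means of MUC2 and MUC5AC, 14.4 and 16.7 CPM, came from few lines. Of the 10 mucins only MUC3A reached the filter limit of 0.407 CPM in all 10 cell libraries, so the others needed vesicle libraries to enter the test, and the count of 8 is a description beside that background. MUC13 had an unadjusted p of 0.0416, so 1 mucin was lower at an unadjusted p under 0.05, and DESeq2 called the same 1 lower.

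The gel-forming mucins were near 0 in the cells of several lines and well above it in every vesicle library. MUC5B was at 1.57 ± 1.75 CPM in cells (SD, n = 10) and 69.1 ± 43.1 CPM in vesicles, higher in 10 of 10 lines, with a log2 fold change of 6.12 ± 0.73 (edgeR adjusted p = 1.28e-05). Its lowest vesicle level was 28.8 CPM and its highest cell level 5.70, and the share of all genes without overlap was not computed. MUC5AC ranged from 19.8 to 74.3 CPM in vesicles with a median of 48.3, and was higher than in cells in 9 of 10 lines, the exception being WiDr (log2 fold change 5.04 ± 1.21, edgeR adjusted p = 0.00324). MUC2 ranged from 14.2 to 121 CPM in vesicles with a median of 33.8, higher in 9 of 10 lines (4.87 ± 1.44, edgeR adjusted p = 0.0112). LS513 was the exception, with 110.0 CPM of MUC2 in cells and 35.7 in vesicles. COLO-201, HCT 116 and LS123, without a MUC2 read in cells, had 301, 101 and 205 counts in vesicles. The fitted fold changes of MUC2 and MUC5AC lean on such lines and depend on the small count added to 0, and without the line block their log2 fold changes were 1.59 (edgeR adjusted p = 0.267) and 1.41 (edgeR adjusted p = 0.300).

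The 4 membrane mucins that were scarce in cells were all called higher in vesicles. MUC4 was at 0.717 ± 0.667 CPM in cells and 43.4 ± 28.2 in vesicles, higher in 10 of 10 lines (log2 fold change 6.21 ± 0.61, edgeR adjusted p = 2.06e-06). MUC12 was at 1.90 ± 2.08 and 59.5 ± 27.3 CPM (5.51 ± 0.48, edgeR adjusted p = 1.20e-06). For both genes the lowest vesicle library lay above the highest cell library, and the share of all genes for which this held was not computed. MUC17 rose from 2.06 ± 3.21 to 28.7 ± 17.7 CPM, in 10 of 10 lines (5.25 ± 0.86, edgeR adjusted p = 0.000125), with overlapping ranges since HCT 116 vesicles had 6.16 CPM. MUC1 was at 2.57 ± 5.42 and 8.09 ± 5.25 CPM, higher in 9 of 10 lines (3.44 ± 0.97, edgeR adjusted p = 0.00748), and LS513 again was the exception. The call of MUC1 was lost without the line block (1.65, edgeR adjusted p = 0.118), in the 5 lines of lower vesicle background described further on (1.31, 0.327) and with a background by length subtracted (1.34, 0.327).

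MUC3A was the only mucin that reached the filter limit of 0.407 CPM in every cell library. It averaged 24.9 ± 26.7 CPM in cells against 72.9 ± 34.1 CPM in vesicles and was higher in 10 of 10 lines (log2 fold change 2.24 ± 0.50, edgeR adjusted p = 0.00175). MUC13 was at 204 ± 242 CPM in cells and 23.2 ± 16.4 in vesicles, lower in 8 lines and higher in HCT 116 and LS123, and its log2 fold change of -1.98 ± 0.88 did not pass the threshold (edgeR adjusted p = 0.0694). Without LS123 the value was -2.39 and passed (edgeR adjusted p = 0.00614), without HCT 116 it was -2.37 (0.0191), and without WiDr and LS123 -2.496 (0.0117). MUC20 was higher in vesicles in 4 lines and lower in 6 (0.58 ± 1.25, edgeR adjusted p = 0.713), the 4 being LoVo, HCT 116, LS123 and SW480, those with little MUC20 in cells.

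The same 8 mucins were called when WiDr and LS123 were left out. Markers of other cell types were higher in the vesicle libraries too. Beside the 28.6% of all genes, and 74.3% of genes below 10 CPM in cells, 4 of 6 fibroblast and endothelium markers were called higher, with summed levels of 0.472 to 17.6 CPM in cells and 21.5 to 229 in vesicles. The counts were 3 of 7 for leukocytes (0.315 to 120 and 7.26 to 56.6 CPM), 3 of 5 for erythroid cells and platelets (0.145 to 10.2 and 3.004 to 191 CPM), 3 of 4 for hepatocytes (0.128 to 7.66 and 5.58 to 58.2 CPM) and 2 of 3 for keratinocytes (103 to 1964 and 40.7 to 1553 CPM). Of the 12 markers of colorectal epithelium 0 were called higher and 2 lower. None of these markers had 0 counts in every library, and their part in the mucin values was not tested.

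Because genes silent in all cell libraries also had vesicle reads, an expected background was computed for each mucin in each vesicle library. The 2077 silent genes, none of which exceeded 10 counts in any cell library, gave the background as a function of exonic length and GC content. That background made up 1.99% of vesicle counts in SW480, between 2.22% and 6.81% in COLO-201, HT-29, HCT 116 and LS513, and up to 47.6% in SNU-C1. Silent genes themselves, summed over the 10 libraries, had 0.0661 to 1.92 times their expectation between the 5th and 95th percentiles, and a 99th percentile of 2.59.

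Summed over the libraries MUC4 and MUC1 lay within that range and the other mucins above its 95th percentile, with MUC13, MUC3A and MUC12 above the 99th. The percentiles are those of silent genes. The share of all genes above them was not computed, so these positions are a description. MUC13 had 1914 vesicle counts in all, 9.80 times its expected background, of which HT-29 gave 820 counts at 94.1 times. Without HT-29 the value was 5.86, and the median over libraries was 6.08. MUC3A had 7.96 times the background over all libraries, with a median of 7.56, and at least 2 times in 10 of 10. MUC12 had 4.59 times, with a median of 2.82. HT-29, with 2108 counts, and SW480, with 1772 counts in vesicles and 29 in cells, carried most of it, and without both the value was 2.03, where MUC5B was at 2.20, MUC2 at 2.14 and MUC5AC at 1.56. The gel-forming mucins lay between the 95th and 99th percentiles of the silent genes, MUC5B at 2.49, MUC5AC at 2.13 and MUC2 at 2.12 times. MUC20 was at 2.505, MUC17 at 2.03 and MUC4 at 1.73 times, and MUC1 at 0.771 times, below its own expectation in 8 of 10 libraries. The value of MUC1, a gene with a GC content of 71.2%, depended on the model. By length alone MUC1 was at 1.63 times, with a median of 1.89, and counts of its repeats are uncertain as described above.

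**Figure D2:**
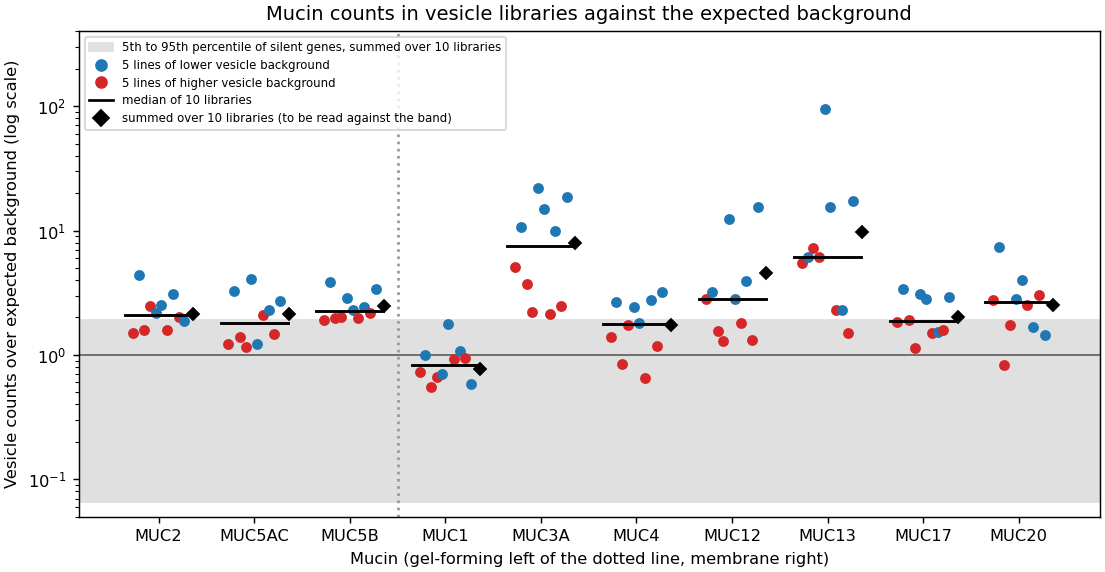
Vesicle counts of each mucin divided by the background expected from its length and GC content (log scale), 1 point per vesicle library, with the median as a bar and the ratio summed over the 10 libraries as a diamond. Grey marks the 5th to 95th percentile of 2077 silent genes summed over libraries, 0.0661 to 1.92, and is on the scale of the diamonds, not of single libraries. MUC13, MUC3A and MUC12 have points above 10, and MUC1 lies around 1.

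With this background subtracted, 9 mucins could be tested and 7 were called higher and 0 lower, beside 14.4% of all genes higher and 20% lower. For this fit and those that follow, the shares were not computed by cell level, so genes as scarce in cells are not set beside the mucins. Only the mean expectation was taken off, so a gene near 0 in cells can be called on what remains. MUC4, within the range of the silent genes, was still called (4.81 ± 1.19, edgeR adjusted p = 0.00625). MUC1 no longer passed the filter. With a background by length alone 7 were again higher, beside 16.5% of all genes, and 0 lower, beside 21.6%. MUC13 kept a negative log2 fold change, -1.49 ± 0.70, that did not pass (edgeR adjusted p = 0.111). In the 5 lines of lower background (COLO-201, HT-29, LS513, HCT 116 and SW480) 6 of 10 mucins were called higher, beside 19.5% of all genes, and 0 lower, beside 19.0%, and MUC2 and MUC1 did not pass. The log2 fold change of MUC2 stayed at 4.75 with a larger SE of 1.88 (edgeR adjusted p = 0.0761), while that of MUC1 was 1.31 (edgeR adjusted p = 0.327).

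Whether a line's vesicles tracked its cells differed from mucin to mucin. Over the 10 lines Spearman's rho between cell and vesicle level was 0.83 for MUC13, 0.79 for MUC5AC and 0.71 for MUC3A, and after subtraction of the background 0.88, 0.64 and 0.47. For MUC12 it was 0.43 and 0.54. For MUC2 it was 0.17 and -0.33, for MUC20 0.12 and 0.07, and for MUC5B -0.02 and 0.05, so a line's vesicle level of these genes was not ordered as its cell level. The vesicle level of MUC2 instead followed the gene's own expected background in CPM, by length and GC content, with a rho of 0.95. That rho was 0.94 for MUC5B and 0.87 for MUC5AC. For MUC17, MUC4, MUC1 and MUC20 it was 0.84, 0.83, 0.82 and 0.68, and for MUC3A, MUC12 and MUC13 0.24, 0.21 and 0.15. These correlations are descriptions over libraries that share their depth and background, without a test. In LS513 the 3 most abundant membrane mucins of the cells went different ways, with MUC3A at 90.1 CPM in cells and 147 in vesicles, MUC13 at 658 and 34.4, and MUC20 at 275 and 21.6.

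**Figure D3:**
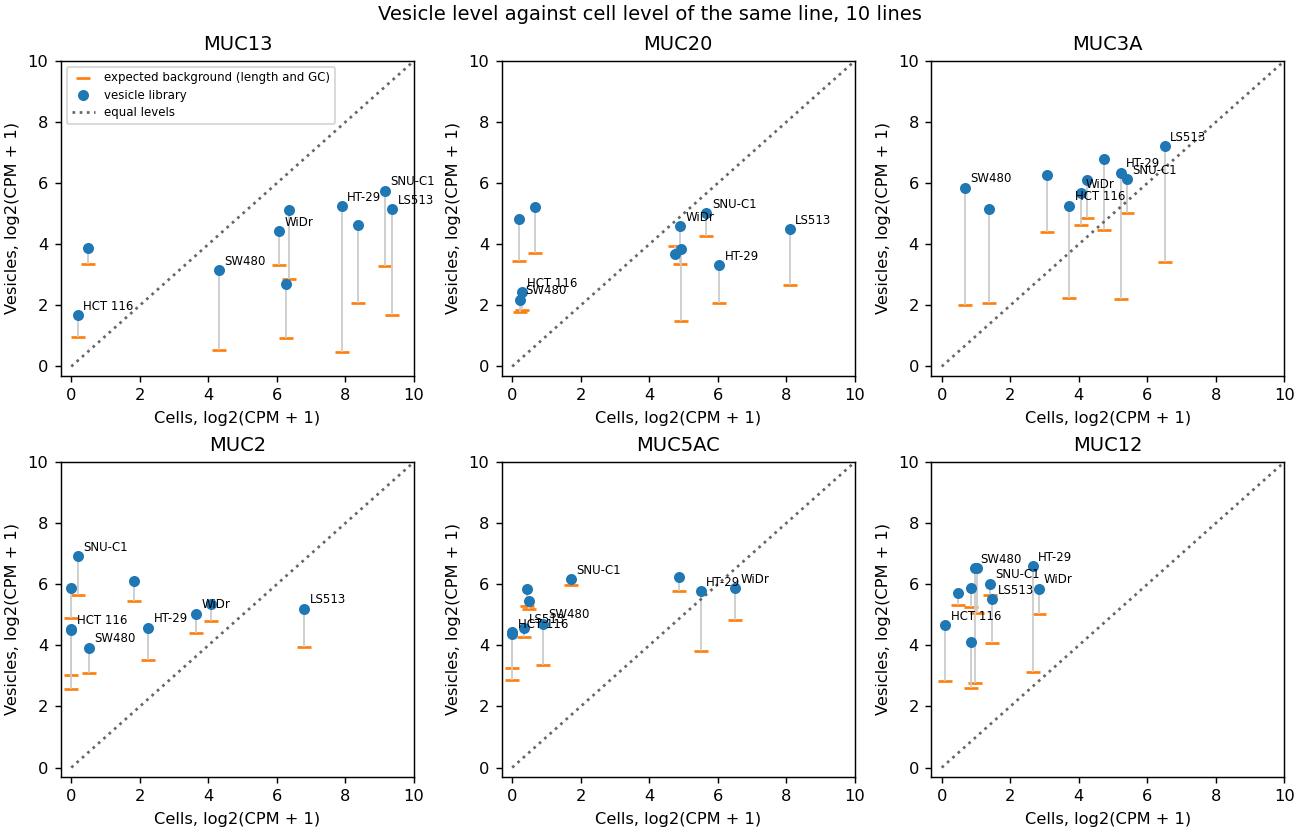
Vesicle level against cell level of the same line, log2(CPM + 1) on both axes, for 6 mucins and 10 lines. Points are vesicle libraries, orange bars the background expected from length and GC content, and the dotted line equal levels. MUC13 points rise with the cell level and lie mostly below the dotted line, while MUC2 points stay level from 0 to 110.0 CPM in cells.

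Among the 10 mucins, the share of the 3 gel-forming ones in the sum per kb was small in cells and larger in vesicles. MUC6, a gel-forming mucin described further on, is not among the 10 and not in these sums. Its median was 0.0275 CPM per kb in cells and 14.0 in vesicles, where the sums of the 3 had medians of 0.790 and 8.08. In cells the share of the 3 had a median of 2.89%, from 0.148% in SNU-C1 to 18.4% in WiDr. In vesicles the median was 27.3%, from 15.4% in LS513 to 38.5% in LS1034, and the share was higher in vesicles in 10 of 10 lines. Both sides of the ratio moved. The gel-forming sum per kb was higher in vesicles in 9 lines, and the membrane sum in 4 (LoVo, HCT 116, LS123 and SW480), which were lines with at most 25.3 CPM per kb in cells. After subtraction the median was 26.7% and still higher in 10 of 10 lines, and the expected background alone would have a median of 32.3%, from 25.0% to 40.5%. The order of the genes was compressed as well: the highest median per kb in vesicles, 6.32 for MUC13, was 4.13 times the lowest, 1.53 for MUC1, where the ratio in cells was 1088.

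**Figure D4:**
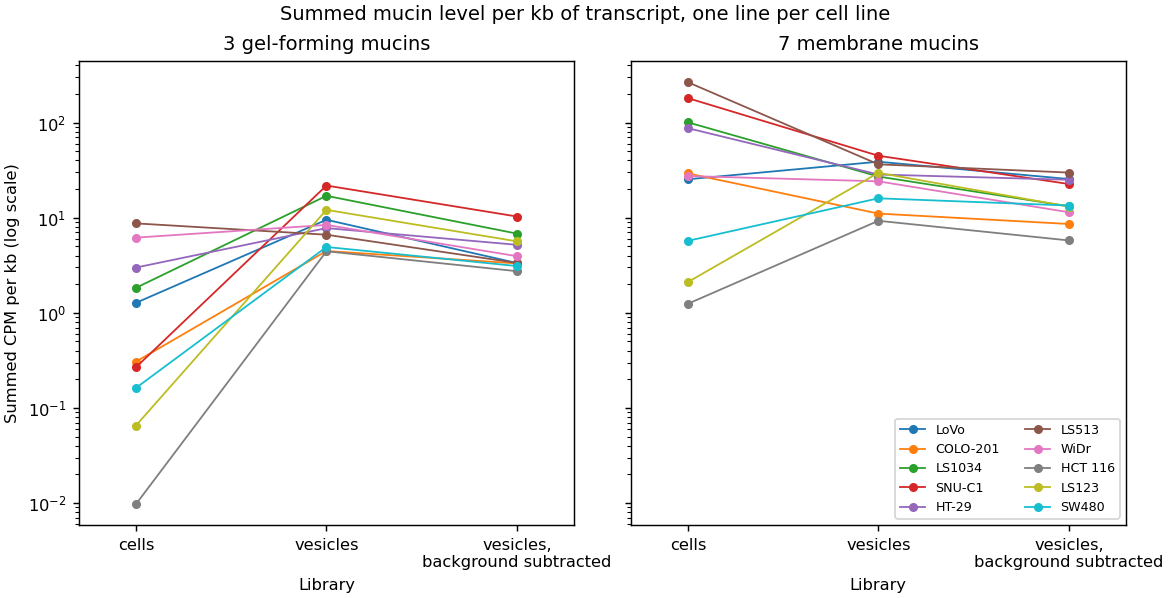
Summed level per kb of exonic length (log scale) of the 3 gel-forming mucins (left) and the 7 membrane mucins (right) in cells, vesicles and vesicles with the expected background subtracted, 1 line per cell line. Gel-forming sums spread from 0.00974 to 8.71 CPM per kb in cells and from 4.44 to 21.8 in vesicles. Membrane sums spread from 1.24 to 265 in cells and 9.27 to 44.8 in vesicles.

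The 2 lines labelled as cecum were compared with the 8 labelled as colon in cells only. None of the 10 mucins was called in either direction, and 0.0% of 14342 genes passed, although 6.65% had an unadjusted p under 0.05 and DESeq2 called 2.8%. Among the mucins 1 had an unadjusted p under 0.05 (MUC1, 0.0406), and DESeq2 called 0. The SEs of the mucins ran from 1.15 to 2.67 on the log2 scale, and log2 fold changes above 3 in size did not pass. MUC2 had a log2 fold change of 3.84 ± 2.05 for cecum over colon (edgeR adjusted p = 0.736), but LS1034 had 2.56 CPM and LS513 110.0 CPM, where the colon lines ran from 0 to 15.8. For all 10 mucins the cecum lines overlapped the range of the colon lines, and the share of all genes with such overlap was not computed. Leaving out LS513 turned the log2 fold change of MUC2 to -0.61, of MUC1 from 3.23 to -1.995, of MUC3A from 1.38 to -1.35 and of MUC4 from 0.82 to -0.60. Without LS513, MUC5AC went from -0.28 to 0.71.

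Other genes of mucin biology were read from 3 lists. Of 12 further mucins and mucin-like genes 10 were in the table and 7 tested, of which 4 were higher in vesicles and 1 lower, with a median log2 fold change of 4.10, beside 28.6% of all genes higher and 28.1% lower. The 4 called higher averaged below 10 CPM in cells, a class in which 74.3% of genes were called higher. The 1 called lower averaged above 10 CPM, where 42.2% were called lower. MUC6, a gel-forming mucin of stomach glands, was at 1.73 ± 4.71 CPM in cells and 112 ± 46.9 in vesicles (8.70 ± 0.90, edgeR adjusted p = 5.67e-06). It had 10722 vesicle counts in all, 11.9 times the expected background, with a median over libraries of 6.72. HT-29 gave 3721 of these counts and SW480 2765. In cells MUC6 had 473 counts, of which SNU-C1 gave 416. MUC16 and MUC19 were also higher, with log2 fold changes of 6.36 and 6.64, at 1.78 and 1.23 times the background. MUC6, MUC16 and MUC19 reached the filter limit in 2, 6 and 3 of 10 cell libraries, so they needed vesicle libraries to enter the test. CD164, a small sialomucin of many cell types, was the single member called lower, from 1170 ± 490 to 115 ± 63.5 CPM, in 10 of 10 lines (-3.38 ± 0.34, edgeR adjusted p = 2.49e-06).

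Enzymes that build O-glycans were mostly lower in vesicles or not called. All 30 listed were in the table, and of the 29 tested 15 were lower and 3 higher, with a median log2 fold change of -1.40, beside 28.1% lower among all genes and 42.2% among those of at least 10 CPM in cells. GALNT7, a transferase that acts on peptides already carrying a first sugar, fell from 135 ± 61.3 to 14.9 ± 5.07 CPM (-3.14 ± 0.27, edgeR adjusted p = 1.16e-06). C1GALT1C1, the chaperone of the core 1 enzyme, had a log2 fold change of -2.84 and GALNT12 one of -2.12, both lower in 10 of 10 lines. B4GALNT2, which makes the Sda antigen, and B3GNT6, the colonic enzyme of core 3, were among the 3 higher (7.05 and 6.47) and had means of 0.0619 and 0.561 CPM in cells. They reached the filter limit in 0 and 1 of 10 cell libraries, so both entered the test through vesicle libraries. ST6GALNAC6, a sialyltransferase, was at 20.8 ± 10.6 and 34.6 ± 14.6 CPM (0.82 ± 0.30, edgeR adjusted p = 0.0284).

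Goblet cell products and regulators gave 24 of 26 genes in the table and 21 tested, of which 5 were higher and 1 lower, with a median log2 fold change of 0.64, a share of higher calls not above the 28.6% of all genes. KLK1, a kallikrein protease, was higher in 10 of 10 lines (1.29 ± 0.32, edgeR adjusted p = 0.00343). SPDEF and ATOH1, the factor that commits cells to the secretory lineage, were higher in 8 lines each, with log2 fold changes of 4.04 and 3.24. HNF4A was lower in 9 of 10 lines (-0.71 ± 0.28, edgeR adjusted p = 0.0430). With the background subtracted the counts were 2 higher and 1 lower of 5 tested for the further mucins, 1 and 12 of 23 for the glycan enzymes, and 4 and 2 of 20 for the goblet genes, beside 14.4% higher and 20% lower among all genes. These all-gene shares were not computed by cell level.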

How the data were processed

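The authors deposited 1 table of unnormalised read counts per gene for the 20 libraries. The aligner STAR, the counter featureCounts and the build hg19 come from the submitters' processing notes. Versions, annotation, strand setting and the handling of reads with several positions are not given in the sources used here. Every count column was matched to its library by title, leaving 0 unmapped.

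Counts were tested with edgeR 4.0.16 (quasi-likelihood, robust) in R 4.3.3, with TMM scaling, filterByExpr (a limit of 0.407 CPM in 10 libraries for vesicles against cells), cell line as a block, and Benjamini-Hochberg adjustment over all genes at 0.05. DESeq2 1.42.0 was an alternative. P-values measure the spread between lines, 1 culture each. Libraries of a line are paired by the labels, and cell and vesicle deviations from the group means correlated at 0.0846 to 0.546 within a line. The fits were also run on simulated counts with known changes in well-counted genes, without line differences or vesicle background. That run does not bear on calls of genes near 0 in cells, and its outcome is not given here.

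Exonic length and GC content came from GENCODE 29 (GRCh38), matched by symbol for 17104 of 17113 genes. It is not the build of the counts, so no hg19 coordinates are given. The background model on length and GC content and the values without HT-29 or SW480 were added after the data were seen. Before it, a rate per kb alone had been chosen, but silent genes with a GC content of at least 55% had 1.63 times that rate, and those under 45% 0.605 times.

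All 10 mucins are named. Each list gives at most 3 genes per direction by adjusted p, and each mucin with at least 10 CPM in a cell library the 3 genes of highest Pearson's r among those of at least 5 CPM. HNF4A, CDX1, CDX2, SPDEF and AGR2 were picked from the goblet list after their values were seen. Most other members of that list stand only in its counts, and 1 gene is not reported here. The members and lists were chosen with earlier results of these data known.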

Additional observations from a re-analysis of the deposited data

Results flagged for a closer look

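In 8 of 20 groups of 10 libraries (10 mucins in 2 compartments), the highest library stood apart from the next by more than 0.466 of the group's whole range. No chance rate is given, since the CPM values were skewed and the 20 groups share their lines. In the cells LS513 stood apart for 4 mucins: MUC2 at 110.0 CPM with the next line at 15.8, MUC20 at 275 with the next at 64.7, MUC3A at 90.1 with the next at 41.3, and MUC1 at 17.7 with the next at 3.46. WiDr stood apart for MUC5AC in cells at 90.1 CPM, with HT-29, the line of like profile, next at 44.4. COLO-201 stood apart for MUC5B in cells at 5.70 CPM, with the next at 2.83. In the vesicles SNU-C1 stood apart for MUC2 at 121 CPM and for MUC4 at 114 CPM, with the next libraries at 67.8 and 57.1, and SNU-C1 had the fewest vesicle counts and the largest background share, 47.6%. The part of depth and background in those values was not tested.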

How the results depend on the processing

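Of the mucin calls between vesicles and cells, those of MUC5B, MUC3A, MUC4, MUC12 and MUC17 kept their direction and call under every alternative run, which were 3 other scalings, no filter, DESeq2, no block, each line left out, WiDr and LS123 left out, 5 lines of lower background, and 2 background subtractions. Without the replicate block 5 mucins were higher and 1 (MUC13) lower, and MUC2, MUC5AC and MUC1 lost their call (edgeR adjusted p = 0.267, 0.300 and 0.118). MUC1 also lost it with a background per kb subtracted (0.327). Mucins called lower ran from 0 to 1 when each line was left out, and numbered 1 without WiDr and LS123 and with DESeq2, each time MUC13. MUC20 turned to -1.39 without the block and to -0.42 in the 5 lines. Over all genes 4322 were higher in the main comparison, 6957 with upper-quartile scaling, 8004 with DESeq2, 2881 in the 5 lines, 2131 with a background per kb subtracted and 1845 with one by length and GC content. Lower were 4254, 2802 with RLE factors, 2465 with library size alone, 1759 with upper-quartile scaling, 2816 in the 5 lines, 2803 and 2569 with the background subtracted, and 2383 to 4277 with a line left out, the lowest without LoVo. These scalings shifted the all-gene median (log2 fold change) from 0.01 to 0.38, 0.48 and 0.76, and to 0.35 without LoVo, and the 8 calls held in all of them. For cecum against colon all genes called higher ran from 0 to 1 with a line left out, and were 2 without WiDr and LS123 and 142 with DESeq2, and those called lower ran from 0 to 1 and were 259 with DESeq2. With a line left out MUC5AC ran from -6.01 to 1.05, turning from -0.28 to 0.08 without HT-29, 0.71 without LS513 and 1.05 without WiDr, and it was 0.84 without WiDr and LS123 and 1.07 with DESeq2. MUC2 ran from -0.61 to 4.81, MUC1 from -1.995 to 4.21, MUC3A from -1.35 to 2.26 and MUC4 from -0.60 to 1.53, each time lowest without LS513 and highest without LS1034. In plain counts the median gel-forming share was 8.67% in cells and 39.3% in vesicles. For all of these the cause was not tested. With 3 counts a listed 0 allows up to 0.915 CPM in the shallowest vesicle library.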
